A study of Mus musculus with 2 samples.

Results

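CTCF peaks at 6 windows named for imprinted genes were examined in E14 embryonic stem cells (ESC) and in neural precursor cells (NPC) derived from them. The windows, on mouse build mm9, were Dlk1/Meg3 (chr12:110590000-110910000), Peg3 (chr7:6560000-6790000), Grb10 (chr11:11730000-12040000), Igf2r (chr17:12775000-13065000), Rasgrf1 (chr9:89700000-90030000) and Kcnq1ot1 (chr7:150290000-150490000). A peak belonged to a window when its centre lay inside it. That rule chose 47 peaks from the 54151 of the ESC list and 45 from the 51421 of the NPC list, 92 of 105572 in all, over 1680 kb. The ESC were E14Tg2A (IB10) cells kept undifferentiated with leukemia inhibitory factor in serum-containing conditioned medium, and the NPC were grown on gelatin with N2 supplement, basic FGF and EGF. Chromatin from both was immunoprecipitated with the same anti-CTCF antibody. Each cell type was represented by 1 library of 1 line, so every difference below is between these libraries, has no replicate check and was not tested. Expression was not measured in these files, so cell-type markers could not be used to check the labels.

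Imprinted genes are expressed mainly from a single parental allele. Their expression is set by imprinting control regions, stretches of DNA that carry methylation on only the maternal or only the paternal copy. CTCF, a zinc-finger protein that blocks enhancers and anchors chromatin loops, binds some of these regions, and at several such sites it binds the unmethylated copy. The deposited lists do not separate the parental alleles, so a peak may come from either allele or from both. Gene positions and sequence on mm9 were not used here. Peaks were therefore not assigned to a promoter, gene body or control region, no sequence is shown, and the gene names are those given to the windows. The description of these loci as having CTCF control regions could not be checked. All 6 windows held peaks of both lists, but so did every stretch of the same length on either side of them.

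The 92 peaks resolved into 58 sites, of which 34 were present in both cell types, 13 in ESC only and 11 in NPC only. A site was called shared when the ESC and NPC peaks overlapped by at least 1 bp, and each of the 34 shared sites joined exactly 1 ESC peak to 1 NPC peak. The unshared share of the ESC members was 27.7% (95% exact Clopper-Pearson interval 15.6 to 42.6), beside 26.0% of the whole ESC list. Among the NPC members it was 24.4% (12.9 to 39.5), beside 21.4% of the whole NPC list. These shares were near those of the lists. All intervals here take peaks as independent and reflect counting error alone.

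**Figure D1:**
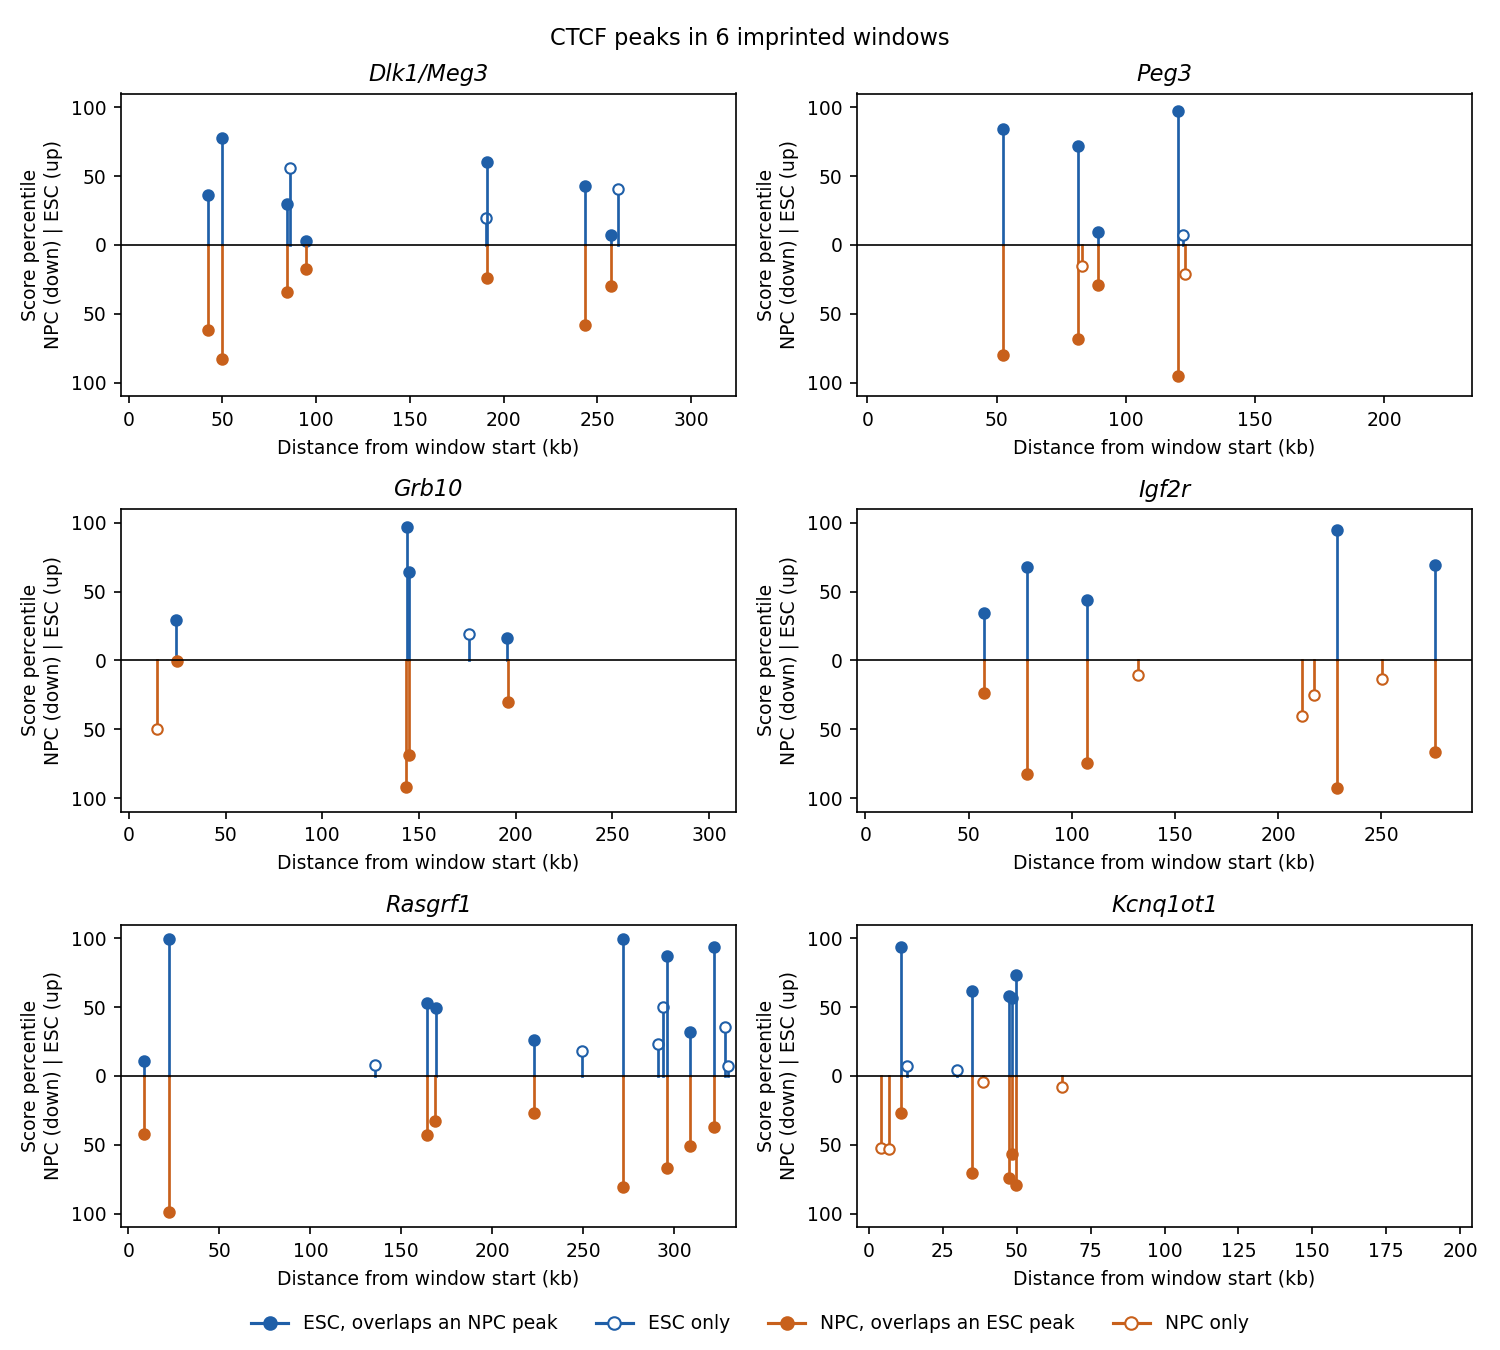
CTCF peaks in the 6 windows, by distance from the window start in kb (horizontal) and by score percentile within the own list (vertical, ESC upwards and NPC downwards). Filled points mark peaks that overlap a peak of the other list and open points mark peaks of 1 list only; most tall stems are mirrored, and most open points are short.

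The score that the authors deposited with each peak is not defined in the files, so a peak is described below by its score and by its percentile within its own list, from 0 for the weakest to 100 for the strongest. Scores are not comparable between the lists, whose medians were 517 in ESC and 385 in NPC. An ESC and an NPC score given side by side are therefore not a measured change in binding, and only the percentiles are set against each other. The strongest peak of a window was the same site in both cell types in 5 of the 6 windows. Those were the windows of Dlk1/Meg3, Peg3, Grb10, Igf2r and Rasgrf1, and the exception was Kcnq1ot1. How often other stretches of these lengths have the same strongest site in both lists was not computed. Strong peaks were rarely unshared anywhere: in the highest of 10 equal score bins 0.54% of ESC and 0.35% of NPC peaks were. In ESC 7 members reached the 90th percentile and 14 lay below the 25th. In NPC 4 reached the 90th percentile and 11 lay below the 25th. Peaks in 1 cell type only were mostly weak: the 13 ESC-only members had a median score of 183, beside 193 for all ESC-only peaks, and the 11 NPC-only members had a median of 165, beside 168 for all NPC-only peaks. Of the 21 ESC members above the median of their list 1 had no NPC peak, beside 4.96% of the upper 50% of the ESC list. Of the 22 such NPC members 2 had no ESC peak, beside 5.01% of the upper 50% of the NPC list. When only the upper 50% of both lists was used, 5 of the 21 ESC and 6 of the 22 NPC members were unshared, beside 27.2% and 22.8% over those parts of the lists. When a peak of the other list within 1 kb was enough, 9 members of each list were unshared, beside 24.0% of ESC and 19.7% of NPC peaks.

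The windows differed in which list held the unshared peaks. ESC-only peaks made up 6 of 15 in the Rasgrf1 window and 3 of 10 in the Dlk1/Meg3 window, and in neither window was there an NPC-only peak. The Igf2r window had the opposite layout, with 4 NPC-only peaks of 9 and no ESC-only peak. The Kcnq1ot1 window held 2 ESC-only and 4 NPC-only peaks, the Peg3 window 1 and 2, and the Grb10 window 1 of each. In the Dlk1/Meg3 and Rasgrf1 windows this layout did not hold when only the upper 50% of both lists was compared. In the first, 2 of 3 ESC and 2 of 3 NPC peaks were then unshared, and in the second 2 of 5 and 1 of 4. The Igf2r window had 0 of 3 and 1 of 4. The shares over those parts of the lists were 27.2% in ESC and 22.8% in NPC. A peak unshared in this setting may still overlap a peak of the other list that scores below its median. With 5 to 15 peaks per list in a window, the interval of every unshared share included the share of the whole list. It ran from 16.3 to 67.7% for the Rasgrf1 ESC peaks and from 13.7 to 78.8% for the Igf2r NPC peaks. The absence of NPC-only peaks among 9 in the Rasgrf1 window allowed a share of up to 33.6%, and among 7 in the Dlk1/Meg3 window up to 41.0%. The absence of ESC-only peaks among 5 in the Igf2r window allowed up to 52.2%.

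**Figure D2:**
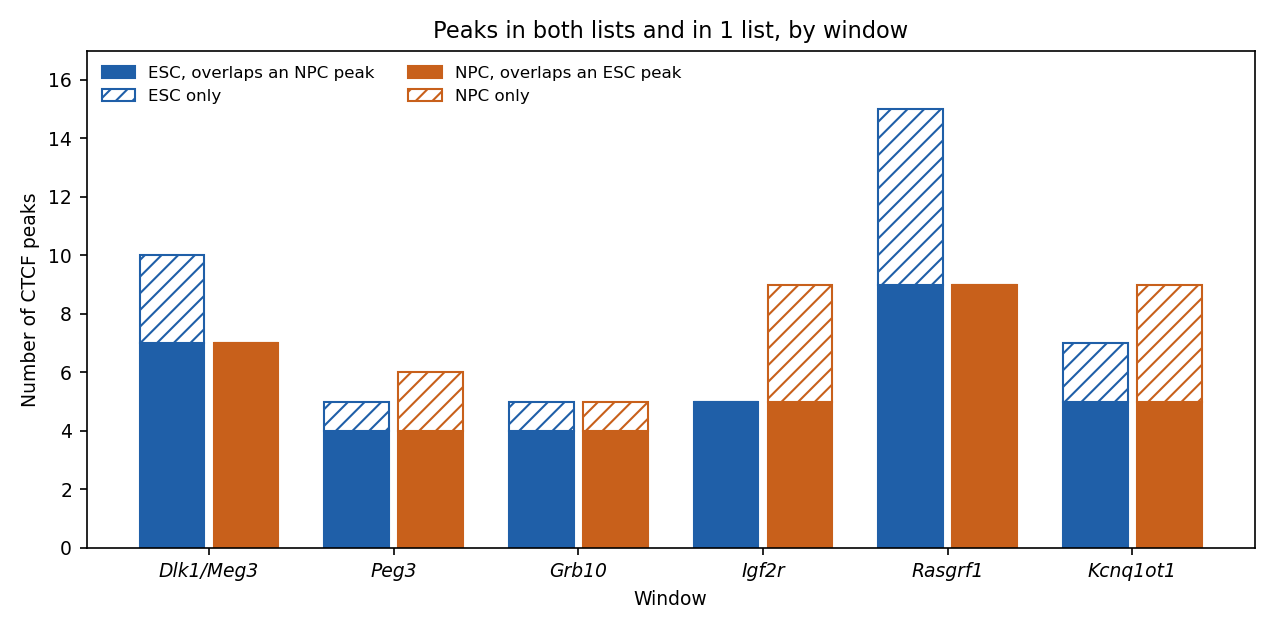
Number of CTCF peaks per window (vertical) in ESC (blue) and NPC (orange); solid parts overlap a peak of the other list and hatched parts do not. The hatched part is in ESC only for Dlk1/Meg3 and Rasgrf1, in NPC only for Igf2r, and in both for the other windows.

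Peg3 encodes a zinc-finger protein expressed from the paternal allele, and in the RefSeq gene order for build GRCm38, used for names only, it lies between Zim1 and Usp29. Its window held 5 ESC and 6 NPC peaks, and 3 of the 4 shared sites kept nearly the same rank in both cell types. The strongest lay at chr7:6679696-6680743 in ESC, with a score of 2037 (percentile 97.0), and at chr7:6679785-6680725 in NPC, with a score of 1759 (percentile 95.2). At 1048 bp in ESC and 941 bp in NPC it was also the widest of the members in each list. It was above the 90th percentile in both lists.

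The other strong Peg3 sites kept their order too. The site at chr7:6612152-6612857 in ESC scored 1296 (percentile 84.3), and its NPC partner scored 997 (percentile 79.9). Next came chr7:6641327-6642043 in ESC, which scored 956 (percentile 71.8), and its NPC partner 689 (percentile 68.1). A weak site at chr7:6649160-6649569 scored 134 in ESC (percentile 9.38) and 208 in NPC (percentile 29.4), so that it ranked higher in NPC. Both lists also had a weak unshared peak beside the strongest site. The ESC peak lay at chr7:6681748-6682182 (score 125) and the NPC peak at chr7:6682822-6683219 (score 165), 639 bp apart. The remaining NPC-only peak, with a score of 145, lay 904 bp from the nearest ESC peak. No peak of either list was found in the last 107 kb of the window, 46.4% of its length. The window edge cut this stretch, and the next peak centre lay 69.9 kb beyond it in ESC and 81.2 kb in NPC.

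Grb10 encodes an adaptor protein that binds the insulin and IGF1 receptors and restrains growth. It is expressed from the maternal allele in most tissues and from the paternal allele in neurons, and it lies between Ddc and Cobl in the RefSeq order. Its window held 5 peaks in each list, and 4 of them were shared. A pair of neighbouring peaks dominated both lists. The first lay at chr11:11873245-11874079 in ESC, with a score of 2049 (percentile 97.1), and scored 1519 in NPC (percentile 92.2). The second lay at chr11:11874777-11875451 in ESC, 697 bp further on, with a score of 784 (percentile 64.0), and scored 696 in NPC (percentile 68.5). Over the whole lists, gaps of at most 2 kb made up 11.0% of those between neighbouring ESC peaks and 10.3% of those between neighbouring NPC peaks.

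The remaining Grb10 peaks were weak or middling. The ESC peak at chr11:11754197-11754960 scored 259 (percentile 29.6), while its NPC partner scored 100.4 (percentile 0.17), close to the lowest score of the NPC list, 100.01. The NPC percentile was 29.4 points lower, and 12.8% of all pairs differed by at least as much in that direction. From an ESC percentile of 29.6 a much larger fall was not possible. The pair was also set beside those of its own ESC score bin, with the ESC list divided into 10 equal bins. Among these 2837 pairs, 0.39% had an NPC percentile as low. That NPC peak was 268 bp wide against 764 bp in ESC, and the centres were 138 bp apart, the largest offset among the 34 pairs. At chr11:11925548-11926053 the ESC peak scored 166 (percentile 16.2) and its NPC partner 210.0 (percentile 29.9). The ESC-only peak at chr11:11905659-11906146 scored 183 and had no NPC peak within 19.6 kb. The NPC-only peak at chr11:11744221-11744693 scored 383 (percentile 49.8) and had no ESC peak within 9503 bp. The dominant pair was preceded by a stretch of 118 kb with no peak of either list, and in the ESC list 9.04% of the gaps between neighbours were at least that long. The last 114 kb of the window were also free of peaks. That stretch was cut by the window edge, and the next peak centre lay 151.5 kb beyond it in ESC and 89.5 kb in NPC.

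Igf2r encodes the receptor that takes up IGF2 and mannose-6-phosphate-tagged proteins, and it is expressed from the maternal allele in most mouse tissues. Airn, the antisense noncoding RNA that silences it on the paternal allele, is its neighbour in the RefSeq order. All 5 ESC peaks of the window had an NPC partner. The strongest lay at chr17:13003163-13003963 in ESC, with a score of 1821 (percentile 95.1), and scored 1549 in NPC (percentile 92.6). At chr17:13050843-13051518 the ESC peak scored 895 (percentile 69.2), and its NPC partner 656 (percentile 66.5). These sites held nearly the same rank in both lists.

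A neighbouring pair of Igf2r sites ranked higher in NPC. The ESC peak at chr17:12882354-12882871 scored 422 (percentile 43.8), and its NPC partner 840 (percentile 74.4). This difference of 30.6 points was the largest in that direction in the window, and 8.20% of all pairs in the lists differed by at least as much in that direction. Among the 4027 pairs in the same ESC score bin, 12.7% had an NPC percentile as high. Its neighbour at chr17:12853171-12853906 in ESC scored 867 (percentile 67.9), and its NPC partner 1070 (percentile 82.2). Weaker in both lists, the ESC peak at chr17:12832414-12832905 scored 306 (percentile 34.3), and its NPC partner 177 (percentile 23.3). The 4 NPC-only peaks of the Igf2r window scored between 127 and 287 and were all below the NPC list median. They lay 10.7 to 24.2 kb from the nearest ESC peak, so none of them had an ESC peak close by. In ESC the stretch from 12882872 to 13003162 had no peak over 120 kb, and 3 of these NPC-only peaks fell within it. In the ESC list 8.84% of gaps were at least that long.

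Dlk1 encodes a transmembrane protein related to Notch ligands and is expressed from the paternal allele, whereas Meg3, next to it, is a noncoding RNA of the maternal allele. Rtl1, Rian, Mirg and Dio3 follow Meg3 in the RefSeq order. The window held 10 ESC and 7 NPC peaks, and all 7 NPC peaks were shared. No peak of the window reached the 90th percentile in either list. The strongest site lay at chr12:110639136-110639942 in ESC, with a score of 1108 (percentile 78.0), and scored 1099 in NPC (percentile 83.1).

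At 6 of the 7 shared sites in the Dlk1/Meg3 window the percentile was higher in NPC, and at 1 it was lower. Over all 39595 paired sites it was higher in NPC in 47.1%. Of these 6 sites, all but the strongest were below the ESC list median. Each was also set beside the pairs of its own ESC score bin, with the ESC list divided into 10 equal bins. In those bins 18.9 to 68.4% of pairs had an NPC percentile at least as high, so such ranks were common. The site with the lower NPC percentile lay at chr12:110781005-110781454 in ESC, with a score of 710 (percentile 60.4). In NPC it lay at chr12:110781124-110781365, with a score of 180 (percentile 24.0). Its NPC percentile was 36.4 points below that in ESC, and 8.22% of all pairs had a difference at least as large in that direction. An ESC-only peak, chr12:110780127-110780682 with a score of 186, lay 322 bp from it, so both ESC peaks at this place were of lower rank or not called in NPC. The largest difference in the other direction was at chr12:110631939-110632586, which scored 324 in ESC (percentile 36.0) and 569 in NPC (percentile 62.1). In that direction 11.1% of all pairs differed by at least as much. The other 4 shared sites, apart from the strongest, ranged from percentile 2.92 to 43.1 in ESC and from 17.2 to 58.2 in NPC.

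The strongest ESC-only member of all 6 windows was in the Dlk1/Meg3 window, at chr12:110675758-110676552, with a score of 615 (percentile 55.6). It was 795 bp wide and lay 852 bp from the nearest NPC peak, which belongs to the shared site beside it. In its bin, when the ESC list is divided into 10 equal bins by score, 13.6% of peaks had no NPC peak. The third ESC-only peak, at chr12:110850695-110851156, scored 378 and lay 3011 bp from an NPC peak. Neither list had a peak in the 95.4 kb from 110684686 to 110780126, which is 29.8% of the window. In the ESC list 11.7% of gaps were at least that long.

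Rasgrf1 encodes an exchange factor that activates Ras and is expressed from the paternal allele in neonatal brain. Its differentially methylated domain is known to bind CTCF on the unmethylated maternal copy, where CTCF blocks an enhancer. That domain was not located on mm9 here, and no peak below was assigned to it. The window held the most ESC peaks of the 6, 15, against 9 in NPC. Its strongest site, chr9:89721650-89722643 in ESC with a score of 2690 (percentile 99.2), scored 2528 in NPC (percentile 98.9). It was the highest-scoring member of both lists and differed by 0.33 percentile points.

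The strong Rasgrf1 sites at higher coordinates ranked lower in NPC than in ESC; apart from the last of them, they are described here after their values were seen. The ESC peak at chr9:89971551-89972230 scored 2645 (percentile 99.1), and its NPC partner 1020 (percentile 80.7). At chr9:89995460-89996177 the ESC peak scored 1383 (percentile 86.9), and its NPC partner 658 (percentile 66.6). Differences of these sizes were common: 22.9% and 20.9% of all pairs had the NPC percentile lower by at least as much, and 31.1% and 28.7% of the pairs in the same ESC score bin had an NPC percentile as low. The difference was larger at chr9:90021311-90022097, which scored 1721 in ESC (percentile 93.8) and 256 in NPC (percentile 36.8). Its NPC percentile was 57.0 points lower, a size reached in that direction by 1.42% of all pairs. Among the 5134 pairs of the highest ESC bin, 2.38% had an NPC percentile as low.

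Not all Rasgrf1 sites went that way: 6 of the 9 shared sites had the lower percentile in NPC and 3 had the higher, beside 52.9% lower over all pairs. The weak site at chr9:89708426-89708880 scored 139 in ESC (percentile 10.5) and 302 in NPC (percentile 42.2), the largest difference in that direction among the 34 pairs. A difference of that size was reached in that direction by 7.63% of all pairs. Among the pairs in the same ESC score bin, 34.1% had an NPC percentile as high. The other 4 shared sites of the window were middling in both lists, from percentile 26.2 to 52.8 in ESC and from 26.9 to 51.3 in NPC. The 6 ESC-only peaks of the Rasgrf1 window scored between 125 and 515, all below the ESC median of 517. The highest of them, at chr9:89993730-89994281 with a score of 515 (percentile 49.8), lay 1355 bp from an NPC peak. The weakest had its centre 0.29 kb inside the upper edge of the window. Just outside that edge both lists had a peak. The ESC peak scored 745 and was centred 0.57 kb away, and the NPC peak scored 396 and was centred 0.52 kb away. This NPC peak lay 411 bp from the weakest ESC-only peak and 2303 bp from the ESC-only peak before it. Both lists had a long stretch without peaks after the strongest site, of 113 kb in ESC and 141 kb in NPC. Gaps at least that long made up 9.66% of those in the ESC list and 7.27% of those in the NPC list.

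Kcnq1ot1 is a long noncoding RNA made from the paternal allele, antisense to Kcnq1, and it silences neighbouring genes such as Cdkn1c, an inhibitor of cell division that follows it in the RefSeq order. The control region at its promoter is known to contain CTCF sites, but that region was not located on mm9 here, and no peak below was assigned to it. The window held 7 ESC and 9 NPC peaks. They lay towards the lower-coordinate end, as no peak of either list was found in the last 135 kb, 67.3% of the window. The window edge cut this stretch, and the next peak centre lay 160 kb beyond it in both lists.

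The Kcnq1ot1 window was the exception to the shared strongest site, and it held the largest difference in rank among the 34 pairs. The strongest ESC peak, chr7:150300452-150301228, scored 1737 (percentile 94.0), whereas the NPC peak at that site scored 195 (percentile 27.1) and was 337 bp wide against 777 bp. The NPC percentile was 66.9 points lower, and 0.50% of all pairs differed by at least as much in that direction. Among the 5134 pairs of the highest ESC bin, 1.40% had an NPC percentile as low. With 50% reciprocal overlap in place of 1 bp, this pair no longer counted as shared. The only NPC-only members above their list median lay next to this site, at lower coordinates. The first, chr7:150293981-150294498, scored 416 (percentile 52.3) and lay 5953 bp from the nearest ESC peak. The second, chr7:150296676-150297132, scored 427 (percentile 53.2) and lay 3319 bp from it. ESC also had a second, weak peak here, the ESC-only chr7:150302810-150303133 with a score of 126, which lay 1751 bp from the NPC peak of the shared site.

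A group of 3 closely spaced peaks in the Kcnq1ot1 window, described after its values were seen, was present in both cell types. It spanned 3249 bp in ESC, chr7:150336886-150340134, and 3153 bp in NPC, chr7:150337025-150340177. In ESC the 3 peaks scored 658, 639 and 993 in genomic order, and in NPC 839, 482 and 978. The third was the strongest NPC peak of the window (percentile 79.3) and stood at percentile 73.4 in ESC. Runs of 3 or more peaks with gaps of at most 2 kb held 4.47% of all ESC peaks and 3.67% of all NPC peaks. The remaining shared site, at chr7:150324595-150325267, scored 741 in ESC (percentile 62.0) and 748 in NPC (percentile 70.8). The 2 ESC-only peaks scored 126 and 113, and the remaining NPC-only peaks 111 and 120, so all 4 were near the lower end of the lists.

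Over the 34 shared sites the percentile was lower in NPC at 16 and higher at 18, with a median difference of 0.44 points (NPC minus ESC), beside -1.18 over all pairs. A difference of over 25 points was found at 4 sites with the lower percentile in NPC, where the background was 16.4% of all pairs, and at 3 sites with the higher percentile in NPC, where it was 11.9%. The first were a site each in the Dlk1/Meg3, Grb10, Rasgrf1 and Kcnq1ot1 windows, and the second a site each in the Dlk1/Meg3, Igf2r and Rasgrf1 windows. These were 11.8% and 8.82% of the 34 sites, so large differences of rank were no more frequent than in the lists. With ranks taken among paired sites only, an alternative chosen after seeing the data, the counts were 3 and 3, beside 15.2% and 15.1% of all pairs, and the Grb10 site was no longer among them. Paired centres were a median of 38 bp apart, beside 32 bp over all pairs. The ESC peak was wider at 29 of the 34 sites (85.3%), beside 87.4% of all pairs.

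**Figure D3:**
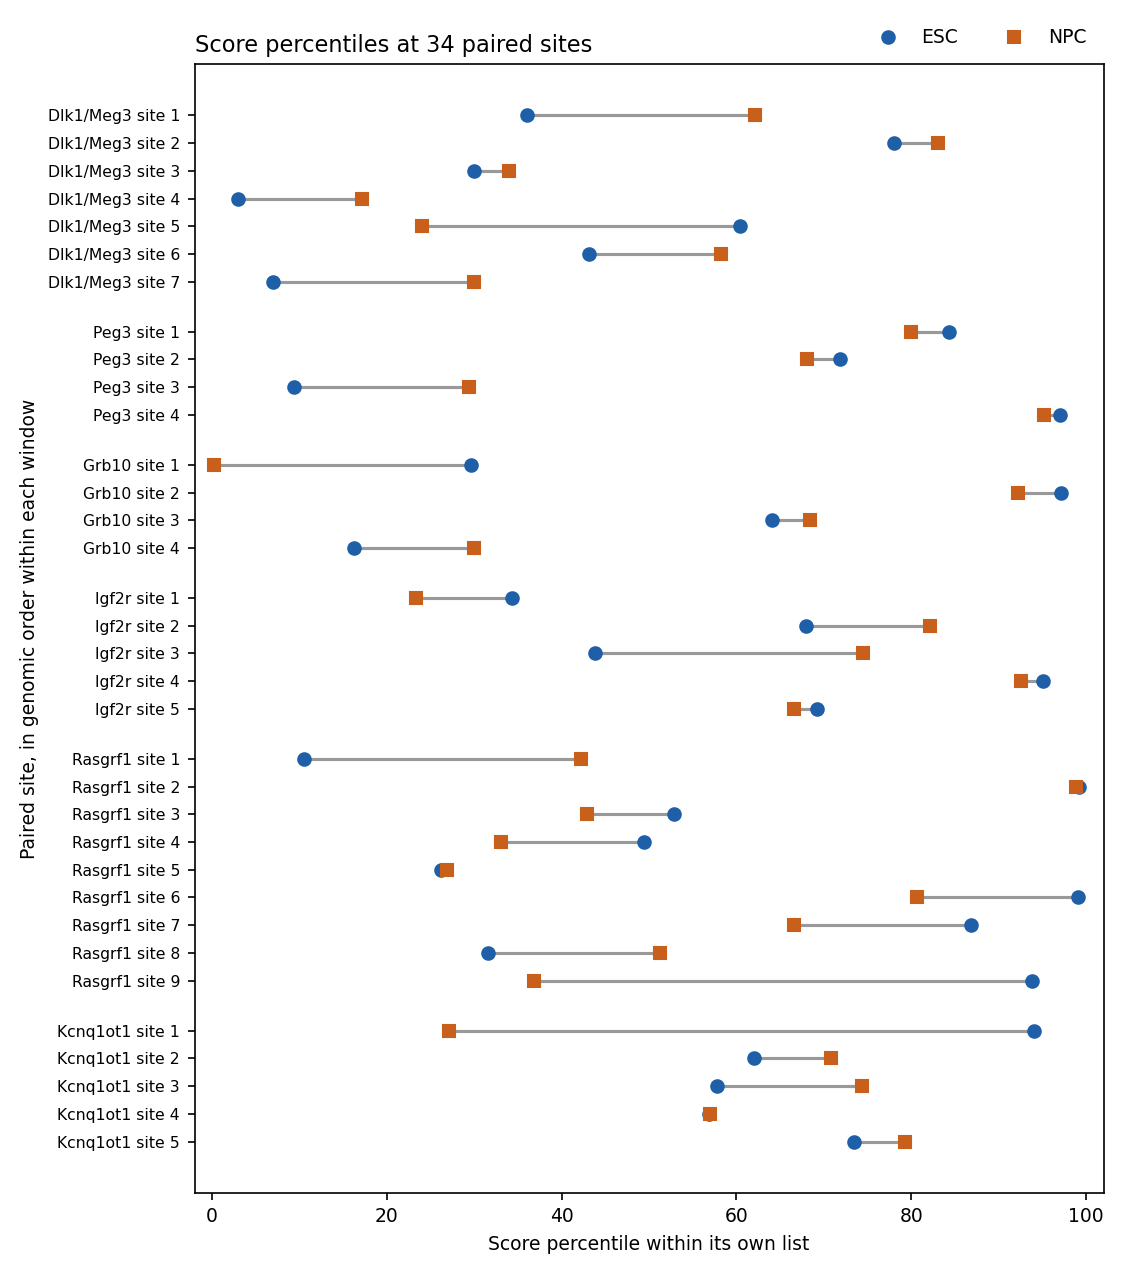
Score percentile within the own list (horizontal) at the 34 sites present in both lists, in genomic order within each window (vertical), with ESC as circles and NPC as squares. The longest lines are Kcnq1ot1 site 1 and Rasgrf1 site 9, both lower in NPC, while the strongest sites of Peg3, Grb10, Igf2r and Rasgrf1 (site 2) stay above 90 in both lists.

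Peak density was compared with the flanks of equal length on either side of each window. In the Dlk1/Meg3 window there were 3.13 ESC and 2.19 NPC peaks per 100 kb, more than in either flank, where densities were 0.63 and 1.88 in ESC and 0.31 and 0.94 in NPC. In the Peg3 window the ESC density, 2.17, was below the 3.91 of both flanks, and the NPC density, 2.61, lay between 3.48 and 2.17. The Igf2r window had 1.72 ESC peaks per 100 kb, below its flanks at 4.48 and 2.76, and 3.10 NPC peaks per 100 kb beside 5.17 and 3.10. The Rasgrf1 window had 4.55 ESC peaks per 100 kb, above its flanks at 2.42 and 3.33, whereas the NPC density, 2.73, equalled that of the flank at higher coordinates. The Kcnq1ot1 window lay between its flanks in both lists, and the Grb10 window, at 1.61 in both lists, had flanks at 1.61 and 1.61 in ESC and at 1.61 and 1.94 in NPC. Over the spans of the chromosomes that carry peaks, the whole lists had 2.10 ESC and 2.00 NPC peaks per 100 kb. These densities rest on 1 to 15 peaks each and were not tested.

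**Figure D4:**
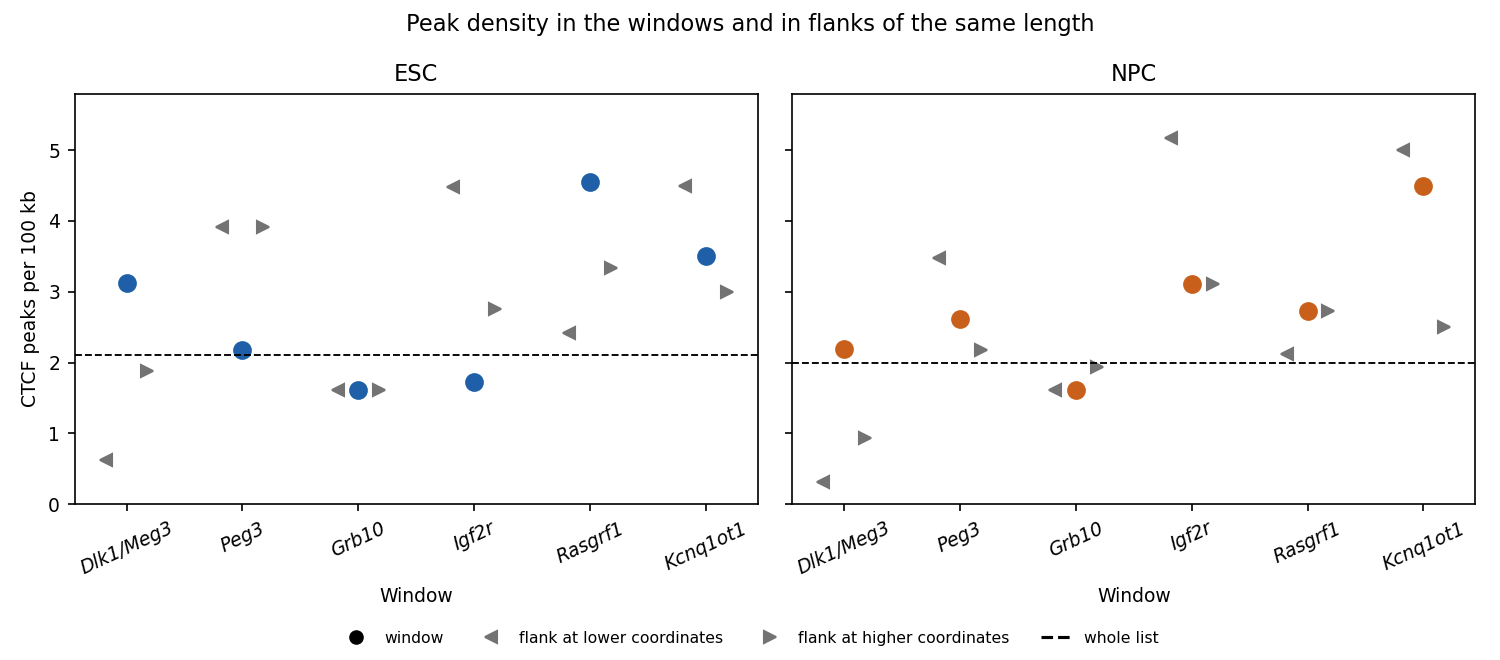
CTCF peaks per 100 kb (vertical) in each window (filled circles), in the flanks of the same length at lower and higher coordinates (triangles) and in the whole list (dashed line), for ESC on the left and NPC on the right. Dlk1/Meg3 lies above both of its flanks in both lists, and Rasgrf1 does so in ESC.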

How the data were processed

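The deposited data were 1 CTCF peak list per cell type. Per the file headers, MACS called the peaks of each library separately, and per the submitters' processing notes the build is mm9. For the aligner, threshold and control: not given in the sources used here. Each peak carries a score, which is the authors' deposited value; its definition is not stated. The lists hold no read counts, so sequencing depth is unknown. Both track names end in CONTROL, which nothing explains; the lists were read as CTCF peaks because the labels say so. The ESC numbering lacks 6 peaks, none of them in the windows. Starts are printed 1-based.

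Percentiles are mid-ranks of the score within a list. Overlap of at least 1 bp was computed in Python 3.11.15 with numpy 2.4.6, pandas 2.3.3 and scipy 1.17.1, checked with bedtools 2.31.1 and tested on simulated data; plots used matplotlib 3.10.9. Alternatives were 50% reciprocal overlap, a centre distance of at most 100 bp, a gap of at most 1 kb, the upper 50% by score, other window edges and ranks within the chromosome. Members and rules were chosen with earlier results of these data known. Named were the strongest peaks per window, unshared peaks above the list median, pairs over 25 percentile points apart, and all peaks where a list had at most 5; peaks of other kinds were chosen after their values were seen.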

Additional observations from a re-analysis of the deposited data

How the results depend on the processing

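Of the 13 ESC-only peaks, 1 remained when the upper 50% of the ESC list was set against the whole NPC list, and 5 ESC peaks were unshared when the upper 50% of both lists were compared; for NPC the counts were 2 and 6 in place of 11. Fewer peaks were compared in these settings, 21 ESC and 22 NPC members. The backgrounds were 4.96% and 27.2% in ESC and 5.01% and 22.8% in NPC. Without the Rasgrf1 window, a choice made after seeing the data, 7 ESC-only and 11 NPC-only peaks were left. That window held 15 of the 47 ESC and 9 of the 45 NPC members, so fewer peaks were compared, and more were lost from ESC. The shares over the whole lists were 26.0% in ESC and 21.4% in NPC, and the difference between the counts was not tested. With 50% reciprocal overlap, centres within 100 bp, peaks within 1 kb, windows widened by 50 kb or any overlap with the window, the counts stayed within 1.5 times of 13 and 11. With 50% reciprocal overlap 15 of 47 ESC and 13 of 45 NPC members were unshared, beside 31.7% and 28.1% of the lists. Centres within 100 bp gave 14 and 12, beside 30.3% and 26.6%. For the other window edges the shares over the lists stayed at 26.0% and 21.4%. Peaks within 1 kb gave 9 and 9, beside 24.0% and 19.7% of the lists. The unshared peaks of the Peg3 window all had a peak of the other list within that distance, and the Dlk1/Meg3 window kept 1 ESC-only peak. With 50% reciprocal overlap or centres within 100 bp the Grb10 window had 2 ESC-only and 2 NPC-only peaks, since the pair whose centres were 138 bp apart no longer counted as shared. With 50% reciprocal overlap the Kcnq1ot1 window had 3 ESC-only and 5 NPC-only peaks. The pair lost there was the one with the largest difference in rank, whose NPC peak was 337 bp wide against 777 bp in ESC. With windows widened by 50 kb the Rasgrf1 window gained 2 NPC-only peaks. Ranking within the chromosome moved the median score percentiles per window and list little, the most in the Kcnq1ot1 NPC peaks, from 53.2 to 49.3. All stayed inside the order-statistic intervals of the main values. Those intervals were too wide for this to be a check, running for example from 7.29 to 97.0 for the Peg3 ESC peaks. The lists give no depth, so a site missing from a list may lie below its calling limit. No paired analysis was possible because each cell type had 1 library, and no library could be left out.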
